A study of Mus musculus with 9 samples.

Results

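In a set of 9 RNA libraries from mouse duodenum, the 3 libraries with replicate number 1 were rich in Paneth cell transcripts, and they are described here against the 6 libraries numbered 2 and 3. Each of the 3 groups of the study gave 1 replicate 1 library and 2 others. The split was chosen on Paneth cell values measured in these same libraries. Every difference between replicate 1 and replicates 2 and 3 is therefore a description and carries no test. Wild-type mice under gluten stimulation that was not enhanced formed the control group. The group labelled CeD was a celiac disease model of the delayed-type hypersensitivity (DTH) kind, in which gluten stimulation was enhanced. The group labelled CeD+GR was that model after composite nanoparticles of gliadin and rapamycin, followed by the same enhanced stimulation. Gliadin is a fraction of gluten protein, and rapamycin inhibits the mTOR kinase. The study asked how the nanoparticles alter intestinal inflammation in the model. The strain, age and sex of the mice, whether each library came from its own animal, and what the number 1 stands for are not given in the labels used here.

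Paneth cells sit at the base of the small intestinal crypts, between the stem cells, and release alpha-defensins, lysozyme and other antimicrobial proteins into the crypt. Wnt signals from the surrounding stroma keep the stem cells dividing and also drive the Paneth cell programme. Above the crypt, enterocytes cover the villus. Plasma cells, macrophages and fibroblasts fill the lamina propria, and smooth muscle, nerve cells and glia form the deeper wall of the gut. In whole tissue, more cells of a type and more RNA per cell cannot be told apart.

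Stretches of 150 bases upstream of the RefSeq start site are shown for 4 of the genes highest in replicate 1, as examples of the sequence next to the genes that chose the split. They were taken from RefSeq (GRCm38.p6) and are written 5′ to 3′ on the strand of the gene. Capitals mark CTTTGA or CTTTGT on either strand, which is the core of the site read by TCF/LEF factors, the nuclear effectors of Wnt signalling. Defa21 and Defa30 encode alpha-defensins, Lyz1 encodes the Paneth cell lysozyme, and Ang4 encodes angiogenin 4, an antimicrobial ribonuclease. The 4 windows lie at chr8:21025395-21025544 (plus strand), chr8:21134500-21134649 (plus strand), chr10:117292869-117293018 (minus strand) and chr14:51773591-51773740 (minus strand). The RefSeq start of Defa30 lies downstream of the start in the deposited table, so the last bases of its window fall within the gene as that table places it.
Defa21: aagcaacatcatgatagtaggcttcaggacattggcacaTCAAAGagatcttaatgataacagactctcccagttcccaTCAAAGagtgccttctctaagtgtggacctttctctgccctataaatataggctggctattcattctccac
Defa30: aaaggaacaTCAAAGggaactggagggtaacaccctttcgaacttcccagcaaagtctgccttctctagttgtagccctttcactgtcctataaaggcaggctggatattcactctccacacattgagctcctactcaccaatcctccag
Lyz1: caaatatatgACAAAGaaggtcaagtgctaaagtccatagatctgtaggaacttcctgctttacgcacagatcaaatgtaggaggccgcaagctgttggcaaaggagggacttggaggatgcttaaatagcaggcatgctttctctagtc
Ang4: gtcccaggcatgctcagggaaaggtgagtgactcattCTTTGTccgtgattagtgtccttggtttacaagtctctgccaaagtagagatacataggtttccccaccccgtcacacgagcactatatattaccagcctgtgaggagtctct
The Defa21 window holds 2 matches and the other windows 1 each. The window of Defa22 is identical to that of Defa21 (100% of bases), whereas Defa21 and Defa30 agree at 28% of positions when laid side by side without gaps. Within 250 bases upstream, 8 of 8 tested alpha-defensins with an entry in the promoter table held a match, as did 6 of 11 other Paneth cell genes. Of all 32851 promoters in that table, 27.6% held one. Some of these promoters are near copies of each other, and a match is only a run of letters.

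Of 54532 genes in the table, 14683 with a mean of at least 0.5 FPKM (fragments scaled to gene length and library size) over the 9 libraries were kept. Ankrd39 lay just inside this limit at 0.500082 FPKM and Gm10273 just outside at 0.499669 FPKM. Reads assigned to genes ran from 15373260 in CeD 1 to 16852104 in control 3, so the replicate 1 libraries were not sequenced more deeply. The enterocyte gene Vil1 stood at 257 to 928 FPKM and the epithelial gene Epcam at 444 to 992 FPKM in all 9 libraries. Duodenal identity was less even, since Pdx1, which encodes a homeobox factor of the proximal gut, stood at 6.64 to 46.0 FPKM in 7 libraries but at 1.59 FPKM in CeD+GR 1 and 0.118 FPKM in CeD+GR 2. The female transcript Xist was at 14.1 to 40.0 FPKM in every library, and the Y-linked genes of the same list had no read in any library. In addition, 3 libraries carried high levels of pancreas, gland or fat genes, namely exocrine pancreas in CeD 1, gastric and Brunner gland mucus in CeD+GR 3 and fat in CeD+GR 2. List medians without CeD 1 and CeD+GR 3 are given beside the main ones for the lists described most fully.

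Differences are replicate 1 minus replicates 2 and 3 on the scale of log2(FPKM + 0.5), with the treatment group in the model, and this scale understates changes of low genes. Across all tested genes the median difference was -0.008, 49.4% of genes were positive, and the median standard error was 0.258. In 1981 genes (13.5%) replicate 1 lay above both other libraries of its group in all 3 groups, and in 1687 genes (11.5%) it lay below both. In 1330 genes (9.06%) every replicate 1 library lay above all 6 others, and in 1064 genes (7.25%) below. The model fitted with limma would call 304 genes higher (2.07%) and 142 lower (0.967%), and since the split was chosen on these values nothing is read from those counts. They serve as the background for each count of members given in the paragraphs that follow.

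Alpha-defensins, the pore-forming peptides of the Paneth cell granule, were higher in replicate 1 for all 15 members that passed the limit on low values. Their summed level was 1116, 1955 and 2422 FPKM in the replicate 1 libraries of control, CeD and CeD+GR, in that order, and 39.7 to 149 FPKM in the other 6 libraries. Defa24 (mm10 chromosome 8, 21734494 to 21735471) stood at 611, 1092 and 1332 FPKM, against a lowest of 27.9, a median of 31.3 and a highest of 77.8 FPKM in replicates 2 and 3. Its difference was 4.64 (SE 0.41). Defa30 (chromosome 8, 21134642 to 21135598), the second most abundant, stood at 378, 583 and 772 FPKM, against a lowest of 6.15, a median of 21.2 and a highest of 52.6 FPKM. No replicate 1 library overlapped the others for any of the 15 genes, which follows in part from how the split was chosen. It also follows in part from the limit on low values, which some members passed only through replicate 1. Defa5, for example, was at 0 in all 6 other libraries. The differences ran from 2.08 for Defa5 to 4.94 for Defa29, with a median of 3.87. By group the median was 2.86 in control, 4.32 in CeD and 4.02 in CeD+GR, and it was 3.33 with CeD 1 and CeD+GR 3 left out. With no filter it was 3.45. Control 1 was the lowest of the 3 replicate 1 libraries for 14 of the 15 members, the exception being Defa5, and control 3 was the highest of the other 6 for Defa24, Defa30 and Defa17.

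Members of this family are near copies, and reads may have been split between them. Of the 15 members, 13 share runs of 100 bases with a transcript of another family member, and for 9 of them over 50% of such runs are shared. Defa24 and Defa26 share 0% and Defa30 shares 0.3%, and these 3 genes had differences of 4.64, 4.70 and 4.80. Of 28 listed members 22 were in the table under these names. The 7 that did not pass the limit were Defa2, Defa28, Defa32 and Defa35, with 6 to 23 reads in all libraries together, and Defa25, Defa27 and Defa33, listed at 0. Defa2, Defa28 and Defa35 had reads in the 3 replicate 1 libraries and none in the other 6, with Defa2 at 0.258, 1.58 and 1.36 FPKM. Defa32 stood at 0.259 FPKM in control 1, 0.264 FPKM in CeD 1 and 0.286 FPKM in CeD 3, and at 0 in the other 6 libraries, CeD+GR 1 included. AY761184, a gene of the same stretch of chromosome 8 (21702519 to 21703645), stood at 148, 252 and 329 FPKM in replicate 1 and at 1.70 to 13.3 FPKM in the other libraries.

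Among 15 other Paneth cell products, 7 lay above both other libraries of their group in all 3 groups and 0 lay below. Ang4 (chromosome 14, 51763878 to 51773590) had the largest fitted difference of the genes in all 43 lists, at 5.30 (SE 0.30). It stood at 18.5, 36.4 and 39.4 FPKM in replicate 1 and at 0 to 0.502 FPKM elsewhere. Lyz1 (chromosome 10, 117287797 to 117292868) stood at 259, 564 and 415 FPKM, against a lowest of 13.0, a median of 17.0 and a highest of 43.6 FPKM. The pentraxin gene Mptx2 reached 8.65, 18.4 and 24.0 FPKM and was at 0 to 0.880 FPKM in the others. Mmp7, the protease that activates pro-defensins, stood at 14.6, 18.8 and 16.7 FPKM, and Itln1, a lectin that binds microbial sugars, at 96.3, 179 and 189.5 FPKM. CeD+GR 3 came closest to replicate 1 for Mmp7, at 7.73 FPKM, while the other 5 libraries lay at 1.15 to 3.86 FPKM. The highest value of Itln1 outside replicate 1 was 40.6 FPKM. Gm14851 and Pnliprp2, the latter named after its values were seen, complete the 7.

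Some genes on that list did not follow the Paneth cell pattern, and 3 had negative differences, named here after their values were seen. Guca2b, which encodes uroguanylin and is also made by villus cells, stood at 799, 591 and 1850 FPKM in replicate 1 and at 151 to 4261 FPKM in the others, a difference of -0.98 (SE 1.07). Nupr1 and Habp2 were highest in CeD+GR 3, at 85 and 51.6 FPKM. Nod2, the intracellular sensor of bacterial cell wall, had a difference of 0.10 (SE 0.28). The median over the 15 genes was 1.50, or 1.16 without CeD 1 and CeD+GR 3. The label of the split thus rests on alpha-defensins and on part of this list rather than on every gene of it.

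**Figure D1:**
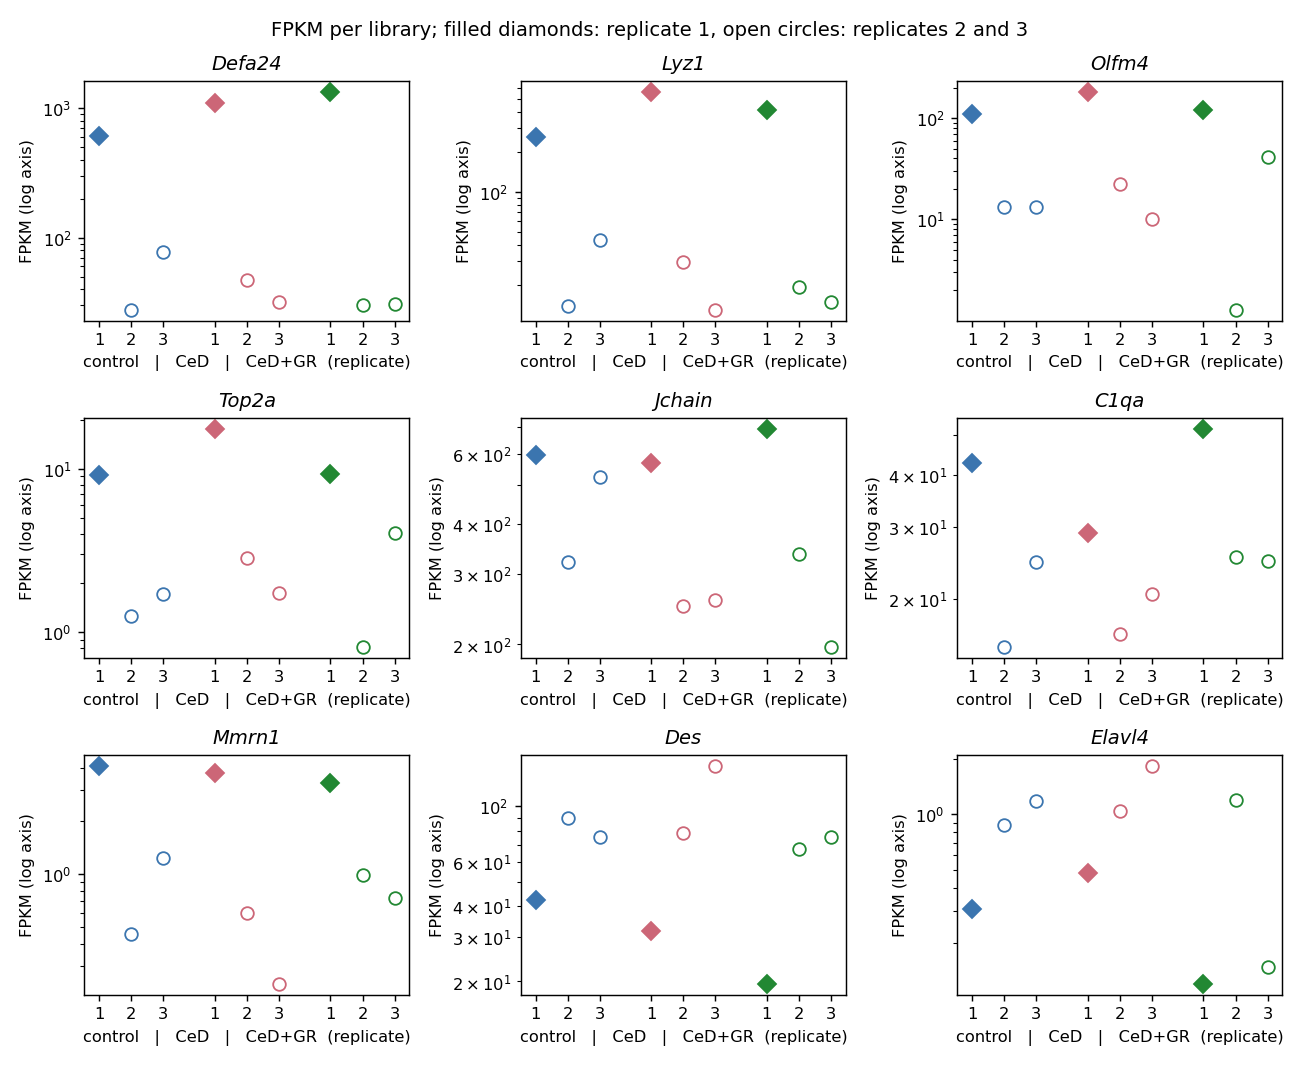
FPKM of 9 genes in each library on log axes, with control, CeD and CeD+GR from left to right, filled diamonds for replicate 1 and open circles for replicates 2 and 3. Defa24, Lyz1, Olfm4, Top2a, Jchain, C1qa and Mmrn1 are highest in replicate 1 within each group, Des is lowest there in each group, and CeD+GR 3 lies close to replicate 1 for Elavl4.

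Cell division genes, grouped here with the crypt lists, were higher in the same libraries. Whether their transcripts came from crypt cells was not tested. Of 25 proliferation genes, 17 lay above both other libraries in all 3 groups and 0 below, with a median difference of 1.44 (1.63 with CeD 1 and CeD+GR 3 left out). Top2a, a topoisomerase of dividing cells, stood at 9.17, 17.5 and 9.23 FPKM in replicate 1, against a lowest of 0.817, a median of 1.73 and a highest of 4.04 FPKM. The mitotic cyclin Ccnb1 stood at 4.62, 7.04 and 4.69 FPKM against 0.227 to 2.10 FPKM, and the replication helicase subunit Mcm5 at 8.23, 10.2 and 4.74 FPKM against 0.838 to 2.22 FPKM. For each of these 3 genes CeD+GR 3 was the highest of the other 6 libraries and CeD 2 the next. Mki67, a mark of cycling cells, did overlap, with 11.3, 18.4 and 8.16 FPKM in replicate 1 and 8.86 FPKM in CeD+GR 3.

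Stem cell genes were less uniform. The mean level of the 19 genes was 2.44, 2.65 and 1.96 on the log2 scale in control 1, CeD 1 and CeD+GR 1, and 0.98 to 1.66 in 5 of the other libraries, but 3.00 in CeD+GR 3. Olfm4, a glycoprotein of crypt base columnar stem cells, stood at 109.7, 181 and 119 FPKM in replicate 1, at 1.29 to 22.6 FPKM in 5 libraries and at 40.8 FPKM in CeD+GR 3. Lgr5, the R-spondin receptor that marks these stem cells, stood at 1.45, 1.30 and 1.11 FPKM against 0.101 to 0.419 FPKM. The water channel gene Aqp4 stood at 3.76, 4.94 and 2.58 FPKM against 0.0625 to 0.970 FPKM. For Lgr5 and Aqp4 the replicate 1 libraries lay above all 6 others, CeD+GR 3 included. In all, 6 of 19 stem cell genes lay above in all 3 groups and 1 below (Rgmb), and the median difference was 0.91 in control, 1.03 in CeD and -0.37 in CeD+GR. It was 0.88 with CeD 1 and CeD+GR 3 left out, against 0.45 with all libraries.

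Other epithelial types did not share this pattern. No gene of 23 enterocyte genes lay above or below in all 3 groups, and the median difference was 0.03, made up of -0.57 in control, -1.06 in CeD and 1.10 in CeD+GR, and it was -0.30 without CeD 1 and CeD+GR 3. Fabp2, the fatty acid binding protein of enterocytes, stood at 2537, 2287 and 4767 FPKM in replicate 1 and at 1617 to 7470 FPKM in the others. Without CeD+GR 1 the enterocyte median was -0.79. Of 14 goblet cell genes 0 lay above and 1 below, which was Ramp1, a receptor partner for the peptide CGRP, at 2.35, 2.25 and 2.69 FPKM against 4.46 to 13.2 FPKM. The mucin gene Muc2 stood at 85.6, 82.6 and 77.9 FPKM, within the range of 33.0 to 139.9 FPKM of the other libraries. None of 13 tuft cell genes lay above or below in all 3 groups.

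Enteroendocrine genes differed from gene to gene. Of 14 tested, 4 lay above in all 3 groups and 0 below, namely Gcg, Chgb, Chga and Tph1. Gcg, which encodes proglucagon, stood at 3.38, 8.15 and 8.43 FPKM in replicate 1 and at 0 to 1.86 FPKM in the others. The granule protein gene Chgb stood at 28.9, 30.1 and 37.6 FPKM, against a lowest of 8.53, a median of 12.0 and a highest of 17.2 FPKM. The hormone genes Sct (secretin) and Gip, chosen after their values were seen, had differences of -0.59 (SE 0.51) and -0.44 (SE 0.65), and their libraries overlapped.

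Immunoglobulin transcripts, the product of plasma cells, showed the second large difference. All 159 tested variable segments had positive differences, with a median of 3.10, and 135 of them lay above both other libraries in all 3 groups. The limit on low values is a mean over all libraries, so a segment could pass through its replicate 1 values alone. The counts of segments given here follow in part from that limit, and with no filter the median was 2.84. Their summed level was 4737, 4434 and 4726 FPKM in replicate 1 and 257 to 815 FPKM in the other libraries. The number of segments with no read was 3, 2 and 0 of 159 in replicate 1, and it was 36, 33, 27, 46, 87 and 23 in control 2, control 3, CeD 2, CeD 3, CeD+GR 2 and CeD+GR 3. The 3 groups had medians of 2.82, 3.13 and 3.25, and the median was 3.32 with CeD 1 and CeD+GR 3 left out. Variable segments are near copies of each other, so single segments are not named.

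**Figure D2:**
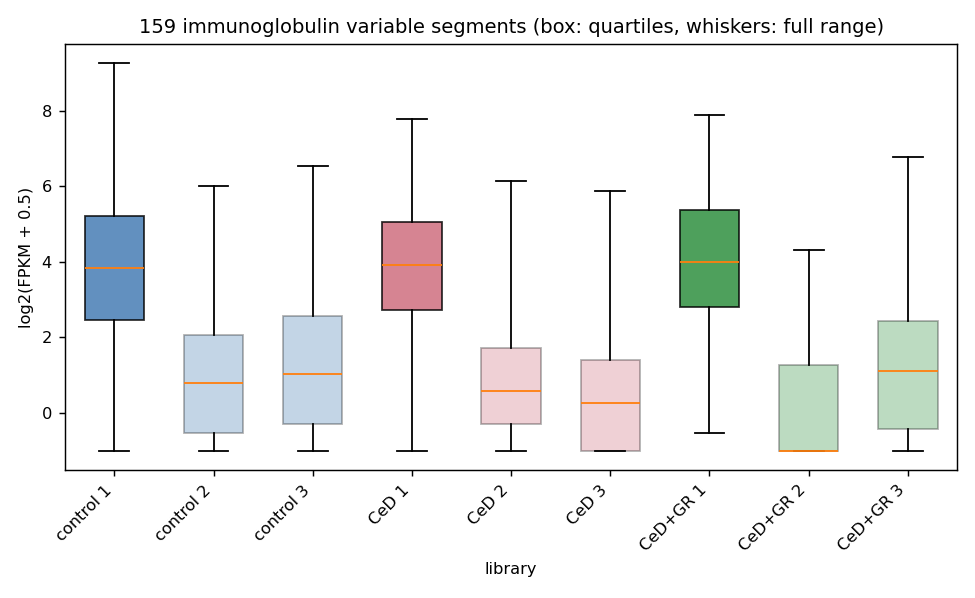
Levels of 159 immunoglobulin variable segments in each library as log2(FPKM + 0.5), with boxes for quartiles, an orange line for the median, whiskers for the full range, and dark boxes for replicate 1. A segment with no read lies at -1, and the medians of the 3 replicate 1 libraries lie near 4 while the other 6 lie near 1 or lower.

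Constant genes differed much less. The summed constant level was 10380, 8892 and 10200 FPKM in replicate 1 and 2863 to 7527 FPKM elsewhere, a ratio of means of 2.39, against 8.99 for the variable segments. Summed variable over summed constant FPKM was 0.456, 0.499 and 0.463 in replicate 1 and 0.0793 to 0.198 in the other libraries. Igha, the heavy chain of gut antibody, stood at 3068, 2612 and 2801 FPKM, against a lowest of 955, a median of 1182 and a highest of 2135 FPKM. Ighm had a difference of -0.02 (SE 0.50). T cell receptor genes had a similar ratio shift, with variable over constant at 0.238, 0.217 and 0.228 in replicate 1 and 0.0493 to 0.102 in the others. There it came with lower constant genes, whose median difference was -0.55, over only 6 variable segments and 7 constant genes. Variable segments are short, with a median length of 360 bases, and whether the ratio reflects the cells or the libraries was not tested.

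Among 16 plasma cell genes, 7 lay above in all 3 groups and 0 below, with a median of 0.62 (0.55 with CeD 1 and CeD+GR 3 left out). These 7 include Igha, Igkc and Iglc1, which are also part of the immunoglobulin constant genes described above. With protein-coding genes only, which leaves those out, the median was 0.549. Pou2af1, a coactivator of immunoglobulin genes, stood at 8.56, 7.55 and 7.75 FPKM in replicate 1, against a lowest of 1.43, a median of 1.61 and a highest of 3.88 FPKM. Irf4, a transcription factor needed for plasma cells, stood at 3.13, 3.15 and 2.23 FPKM against 0.460 to 1.46 FPKM. Jchain, which joins antibody dimers, stood at 595, 569 and 691 FPKM against 197 to 526 FPKM, and control 3 came closest. Xbp1, a transcription factor of secretory cells named after its value was seen, had a difference of 0.05 (SE 0.37). Of 18 B cell and follicle genes 6 passed the limit, and 3 of them (Cd79a, Cd79b and Fcrla) lay above in all 3 groups. Cd79a, part of the B cell receptor, stood at 7.77, 6.20 and 5.14 FPKM against 2.23 to 3.48 FPKM.

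Macrophage genes were higher in replicate 1, whereas T cell genes were not. Of 18 macrophage and dendritic cell genes 9 lay above in all 3 groups and 0 below, with a median of 0.54 (0.58 with CeD 1 and CeD+GR 3 left out). Csf1r, the receptor for the macrophage growth factor, stood at 14.3, 11.8 and 13.7 FPKM in replicate 1, against a lowest of 2.62, a median of 4.23 and a highest of 5.47 FPKM. The complement gene C1qb stood at 31.3, 21.4 and 35.4 FPKM against 6.78 to 17.1 FPKM, and Adgre1, which encodes F4/80, at 2.61, 3.03 and 2.67 FPKM against 0.647 to 1.15 FPKM. Of 14 T cell genes 2 (Cd4 and Cd6) lay above in all 3 groups, and the median was 0.03 (-0.11 without CeD 1 and CeD+GR 3). Cd4, the co-receptor of helper T cells that macrophages also carry at low level, had 3.46, 2.63 and 3.24 FPKM against 0.819 to 1.97 FPKM, while Cd3e, a chain of the receptor complex, had 2.67, 1.09 and 1.65 FPKM against 0.765 to 2.51 FPKM. Cd8a also overlapped, at 11.04, 5.63 and 8.17 FPKM against 4.34 to 15.6 FPKM. Itgae, the integrin of intraepithelial lymphocytes, was with Tbx21 1 of 2 cytotoxic and intraepithelial genes out of 14 above in all 3 groups, at 7.72, 4.92 and 4.98 FPKM against 1.26 to 4.01 FPKM.

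Antigen presentation genes did not share the order of the macrophage genes. Of 16 class I genes 1 had a positive difference (H2-Q7), and the median was -0.39, made up of -0.65 in control, -0.72 in CeD and -0.10 in CeD+GR. It was -0.62 without CeD 1 and CeD+GR 3. The list mean was 5.92 to 6.28 on the log2 scale in replicate 1 and lower still in CeD+GR 3, at 5.59, and 0 genes lay below both other libraries in all 3 groups. Tapbp, the peptide loading chaperone, stood at 86.2, 66.6 and 88.6 FPKM in replicate 1, at 147 to 224 FPKM in 5 libraries and at 70.0 FPKM in CeD+GR 3. The class II list had a median of -0.04, with Cd74 at 939, 841 and 1371 FPKM against 347 to 1115 FPKM. Interferon stimulated genes had a median of -0.17, and 1 of 28 lay above in all 3 groups. That gene was Cxcl9, a chemokine for activated T cells, at 3.99, 2.47 and 12.3 FPKM against 1.196 to 2.21 FPKM.

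Some stromal genes of the crypt niche were high together with the Paneth cell genes. Of 15 telocyte and crypt niche genes 6 lay above in all 3 groups and 1 below. The median was 0.68 with or without CeD 1 and CeD+GR 3. By group it was 0.93 in control, 0.72 in CeD and 0.20 in CeD+GR. The list mean on the log2 scale was 1.40 in CeD+GR 1, below the 1.57 of CeD 3. Hhip, a binder of hedgehog ligands, stood at 3.69, 4.34 and 3.68 FPKM in replicate 1, against a lowest of 0.308, a median of 0.474 and a highest of 0.741 FPKM. Bmp5, a ligand that limits crypt growth, stood at 3.03, 3.12 and 1.75 FPKM against 0.0452 to 0.741 FPKM. Wnt2b, a stromal Wnt ligand, stood at 2.13, 2.76 and 0.938 FPKM against 0 to 1.04 FPKM, so CeD 3 overlapped CeD+GR 1. The 1 member below was Rspo1, an R-spondin that boosts Wnt signals, at 0.113, 0.347 and 0.0666 FPKM, with CeD 3 the highest of the others at 5.48 FPKM. Niche genes therefore did not all go in 1 direction.

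Fibroblast genes were higher in control 1 and CeD 1 and not in CeD+GR 1. The median of 17 fibroblast and matrix genes was 0.96 in control, 0.86 in CeD and -0.33 in CeD+GR, and 4 of 17 lay above in all 3 groups (Col6a1, Col6a2, Col6a3 and Pdgfra) and 1 below (Postn). Pdgfra, the receptor that marks fibroblasts and telocytes, stood at 7.10, 6.95 and 5.31 FPKM against 1.79 to 3.83 FPKM. Col6a1, a collagen VI chain, stood at 26.0, 29.6 and 16.2 FPKM, against a lowest of 7.22, a median of 9.35 and a highest of 15.4 FPKM. Col1a1, the main fibrillar collagen, did overlap, at 8.85, 15.2 and 4.18 FPKM against 2.81 to 9.63 FPKM. With CeD+GR 1 left out the median was 0.96, against 0.50 with all libraries, and leaving out CeD 1 and CeD+GR 3 gave 0.56.

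Endothelial genes followed a similar order. Of 13 blood endothelial genes 4 (Cdh5, Plvap, Tek and Vwf) lay above in all 3 groups and 0 below, and the median was 1.21 in control, 1.19 in CeD and 0.03 in CeD+GR. Over all groups it was 0.83, and 0.77 without CeD 1 and CeD+GR 3. Plvap, which forms the diaphragms of capillary pores, stood at 49.2, 37.9 and 46.2 FPKM in replicate 1, at 7.70 to 12.2 FPKM in 5 libraries and at 46.2 FPKM in CeD+GR 3. Of 5 lymphatic endothelial genes 3 (Flt4, Lyve1 and Mmrn1) lay above in all 3 groups. Mmrn1, a glycoprotein of lymphatic vessels, stood at 4.07, 3.72 and 3.27 FPKM against 0.238 to 1.22 FPKM, and the hyaluronan receptor Lyve1, which some macrophages also carry, at 6.02, 4.88 and 4.87 FPKM against 1.29 to 3.12 FPKM. Both genes separated the 3 replicate 1 libraries from all 6 others.

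Smooth muscle was the list with the most even shift downwards. All 13 tested genes lay below both other libraries of their group in all 3 groups, where the background is 11.5%, and the median was -1.25 (-0.86 with CeD 1 and CeD+GR 3 left out). The median was -0.56 in control, -1.33 in CeD and -1.63 in CeD+GR. Des, the intermediate filament of muscle, stood at 42.2, 31.7 and 19.6 FPKM in replicate 1, against a lowest of 67.7, a median of 76.9 and a highest of 145 FPKM. Tpm2, a tropomyosin, stood at 27.9, 24.1 and 12.0 FPKM against 45.02 to 102 FPKM, and Tagln, an actin binding protein, at 0.746, 0.762 and 0.650 FPKM against 2.20 to 4.73 FPKM. Acta2 and Myh11, the contractile actin and myosin, had differences of -1.12 (SE 0.31) and -1.03 (SE 0.33), and their control values were close, with Myh11 at 59.6 FPKM in control 1 and at 64.0 and 73.1 FPKM in control 2 and 3. Myocd, the remaining gene of 14 listed, did not pass the limit on low values.

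Nerve and glial genes of the gut wall were lower as well, with less regularity. Of 12 enteric neuron genes 3 lay below in all 3 groups (Elavl4, Gal and Nos1) and 1 above, and the median was -0.79 (-1.06 without CeD 1 and CeD+GR 3). Gal, which encodes the neuropeptide galanin, had the lowest fitted difference of that list, -2.11 (SE 0.58). It stood at 1.23, 1.65 and 0.635 FPKM in replicate 1, at 5.56 to 12.4 FPKM in 5 libraries and at 1.12 FPKM in CeD+GR 3. Prph, an intermediate filament of peripheral neurons, had the same exception, with 1.19 FPKM in CeD+GR 3. The mean of the neuron list on the log2 scale was also lowest in CeD+GR 3, at 0.133, against 0.448 in CeD+GR 1. The gene above was Vip, vasoactive intestinal peptide, at 7.12, 6.53 and 4.88 FPKM against 2.54 to 3.80 FPKM. Of 6 glial genes 4 lay below in all 3 groups, among them Cdh19, S100b and Sox10. Of 7 pericyte genes 3 lay below (Abcc9, Kcnj8 and Rgs5) and 1 above (Pdgfrb). Rgs5, a regulator of vessel tone in pericytes, stood at 44.4, 47.8 and 16.0 FPKM against 32.8 to 219.9 FPKM, while Pdgfrb, the growth factor receptor of pericytes, had a difference of 0.88 (SE 0.25). Of 6 genes of the mesothelium, which covers the gut, 1 lay below in all 3 groups and 0 above. That gene was Msln, a surface protein, at 0.338, 0.265 and 0.0916 FPKM against 0.757 to 17.2 FPKM. The median of the list was -0.01 in control, -1.55 in CeD and -1.15 in CeD+GR.

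**Figure D3:**
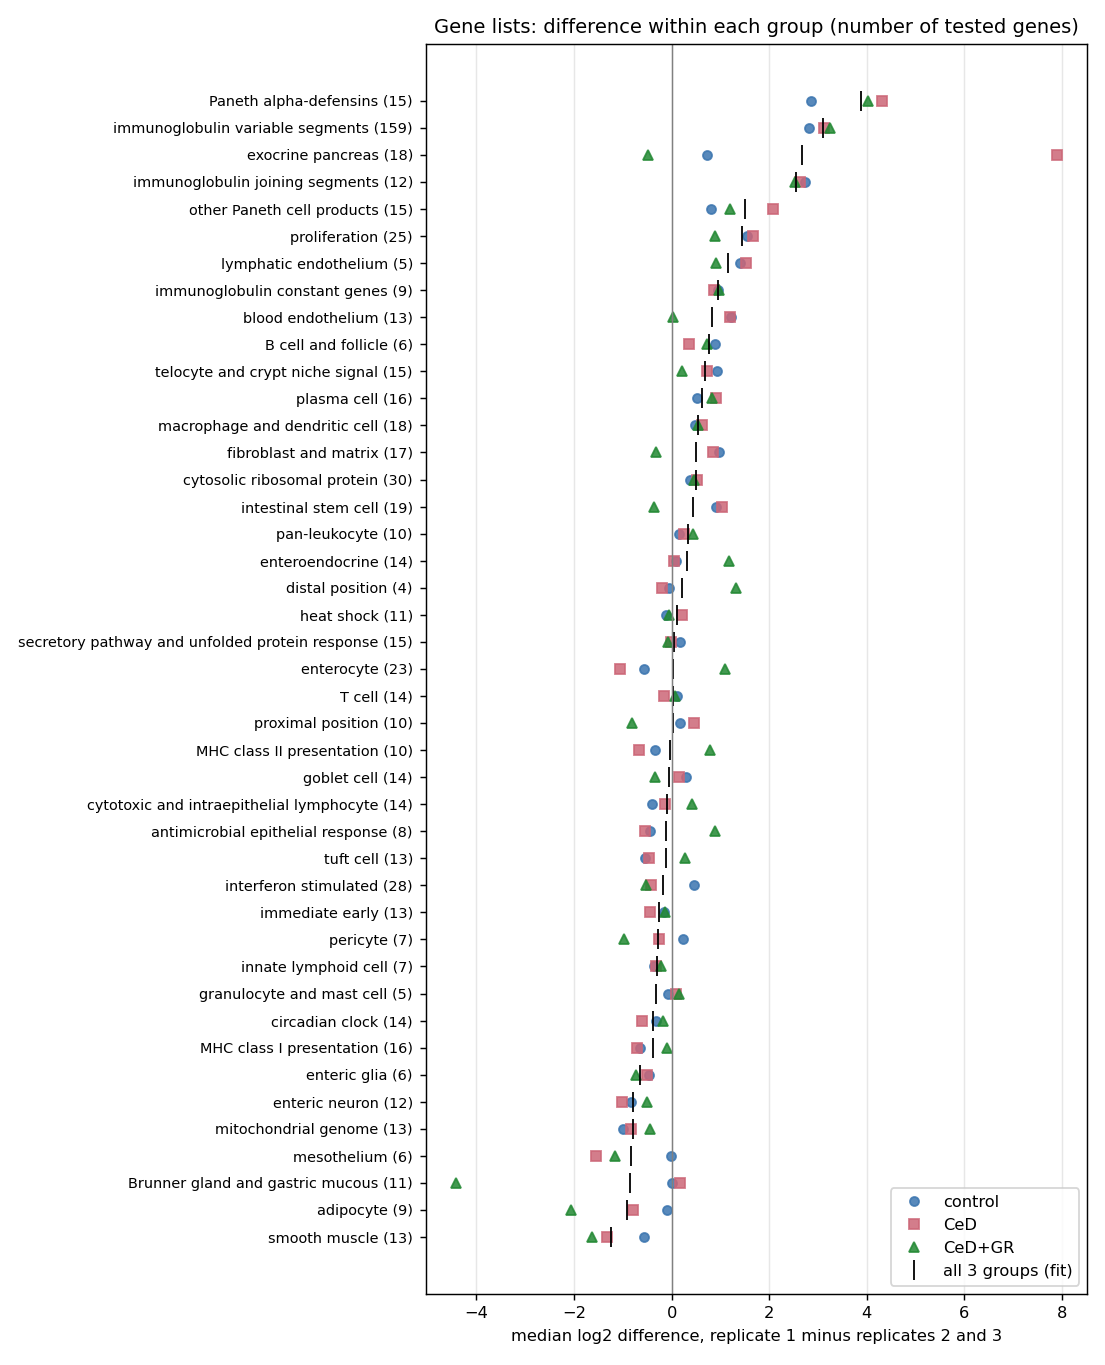
Median difference of each gene list on the log2 scale, replicate 1 minus replicates 2 and 3 of the same group, with circles, squares and triangles for control, CeD and CeD+GR, a black tick for the fit over all 3 groups and the number of tested genes in brackets. Alpha-defensins and immunoglobulin variable segments lie near 3 to 4 in all groups, smooth muscle lies below 0 in all groups, and exocrine pancreas is near 8 in CeD alone.

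**Figure D4:**
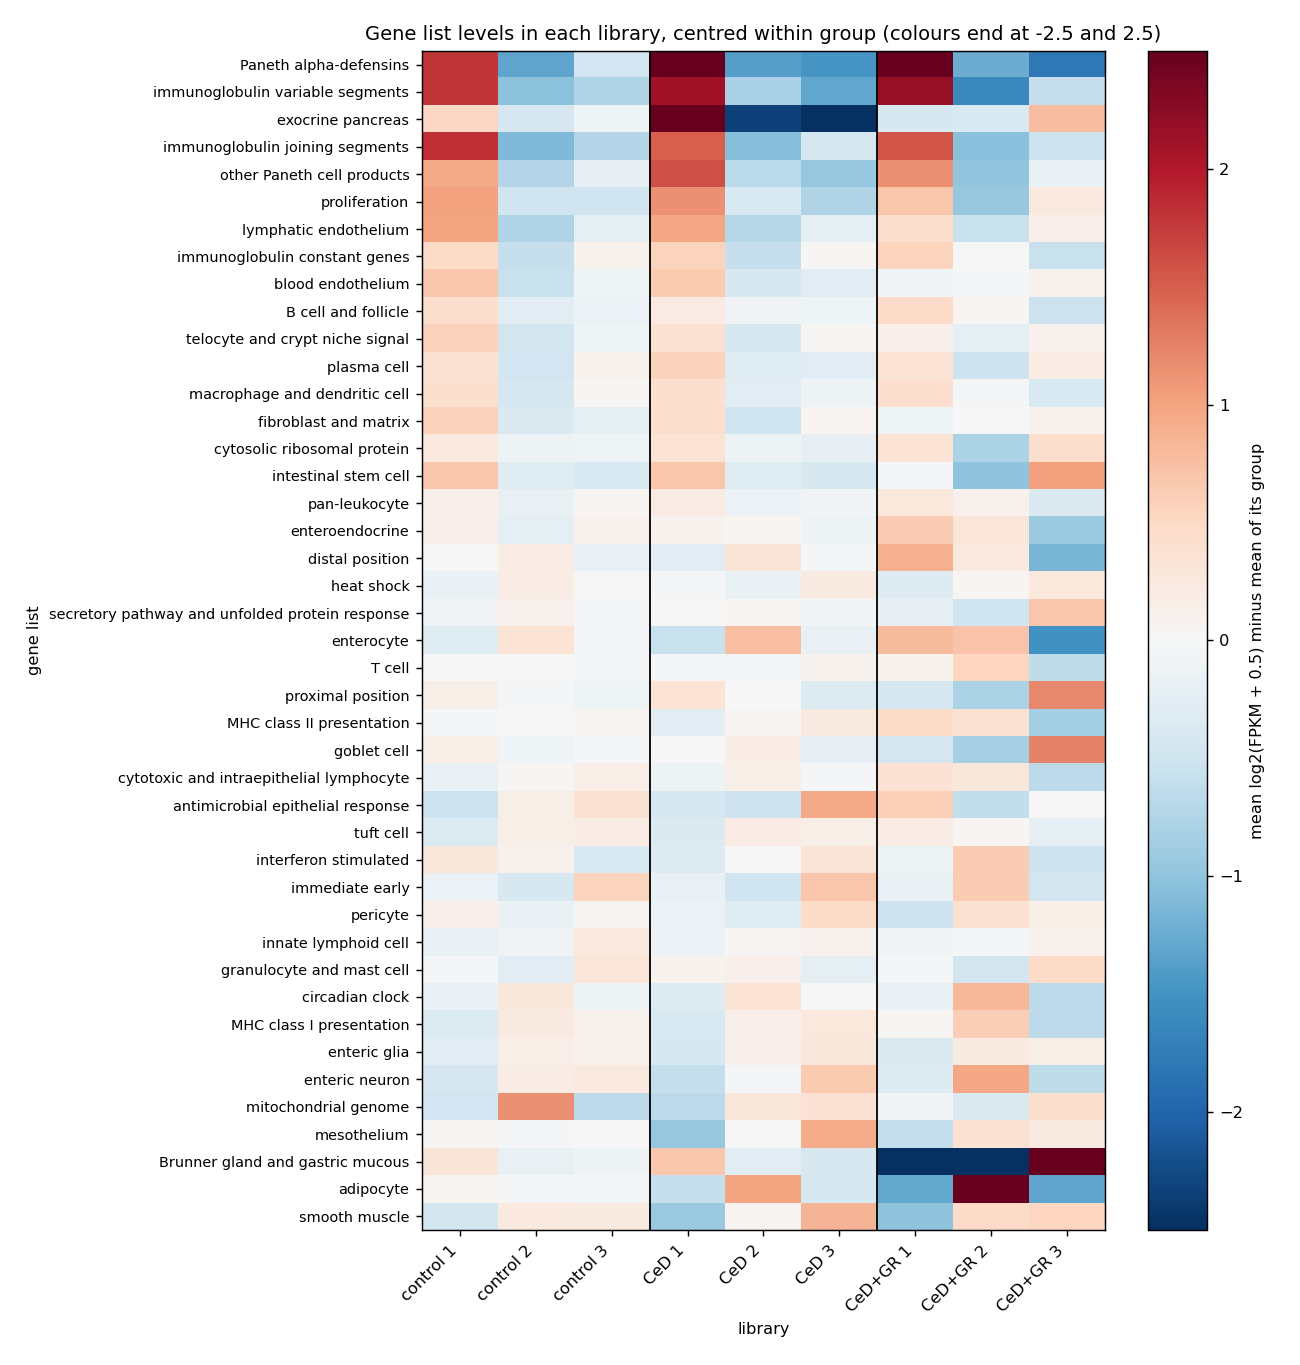
Mean log2(FPKM + 0.5) of each list in each library minus the mean of its treatment group, with red for higher, blue for lower and black lines between groups. The first column of each group is red for defensins, immunoglobulin, proliferation and lymphatic endothelium and blue for smooth muscle, and CeD+GR 3 is red for stem cell, gastric and goblet cell lists.

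Genes ranked by size alone included a few more that were lower in replicate 1 of every group. Cd59a, an inhibitor of complement attack, stood at 4.19, 4.27 and 2.60 FPKM in replicate 1 and at 11.2 to 22.4 FPKM in the others, a difference of -1.78 (SE 0.22). Hand2, a transcription factor of enteric neurons and gut mesenchyme, stood at 1.38, 1.43 and 0.961 FPKM against 2.65 to 9.99 FPKM. Ccl20, a chemokine of the epithelium over lymphoid follicles, stood at 1.86, 2.01 and 1.55 FPKM against 2.25 to 24.0 FPKM, with no overlap but with CeD 2 close to CeD 1. Gapdh stood at 2.70, 2.497 and 2.39 FPKM against 3.85 to 39.6 FPKM, with control 2 and CeD 3 far above the rest, and its many pseudogenes may have taken reads. Clu, a secreted chaperone, stood at 656 FPKM in CeD+GR 3 and at 2.13 to 13.5 FPKM in the other libraries.

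Genes of general cell state differed too. Cytosolic ribosomal protein genes were positive in 28 of 30, with a median of 0.50 (0.75 without CeD 1 and CeD+GR 3), and 8 of 30 lay above in all 3 groups. Rpl3 stood at 147, 152 and 190.0 FPKM in replicate 1, at 41.6 to 65.5 FPKM in 5 libraries and at 166 FPKM in CeD+GR 3. Transcripts of the mitochondrial genome took 4.16%, 4.42% and 5.45% of reads in replicate 1 and 5.67% to 10.2% in the others, and 7 of 13 of these genes lay below in all 3 groups. The immediate early genes Ier3 and Jund were lower in all 3 groups. Ier3 stood at 9.47, 6.79 and 8.39 FPKM against 12.0 to 32.5 FPKM, but only 2 of 13 genes of that list lay below and the median was -0.26. Of 15 genes of the secretory pathway and unfolded protein response 5 (Atf4, Creld2, Ddit3, Manf and Sec61b) lay below and 0 above, with a median of 0.05. Atf4, a transcription factor of the stress response, stood at 50.2, 51.8 and 64.4 FPKM against 89.2 to 143 FPKM.

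Properties of the transcripts themselves moved with the split. Among protein-coding genes longer than 8000 bases 21% lay above in all 3 groups and 5.98% below, whereas among those of 1000 to 2000 bases 8.51% lay above and 19.2% below. The median difference was -0.22 in the class of 1000 to 2000 bases and 0.15 in that over 8000 bases. By group these medians were -0.29 and 0.23 in control, -0.27 and 0.18 in CeD, and -0.07 and 0.09 in CeD+GR. Genes of up to 1000 bases had 11.9% above and 12.1% below, with a median of -0.16. Base composition also moved with it. Genes over 58% GC had 7.16% above and 19% below, with a median of -0.17, made up of -0.003 in control, -0.11 in CeD and -0.27 in CeD+GR. Of 259 lincRNA genes 11 lay above and 47 below, and of 245 antisense genes 13 and 42. With values corrected for GC content and length, a setting added after the data were seen, the median was 3.69 for alpha-defensins (3.87 uncorrected), 2.91 for variable segments (3.10), 1.33 for proliferation (1.44) and -1.16 for smooth muscle (-1.25). Under that correction 1886 genes lay above both others in all 3 groups and 1842 below, and 273 genes would be called higher and 84 lower, in place of 304 and 142.

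**Figure D5:**
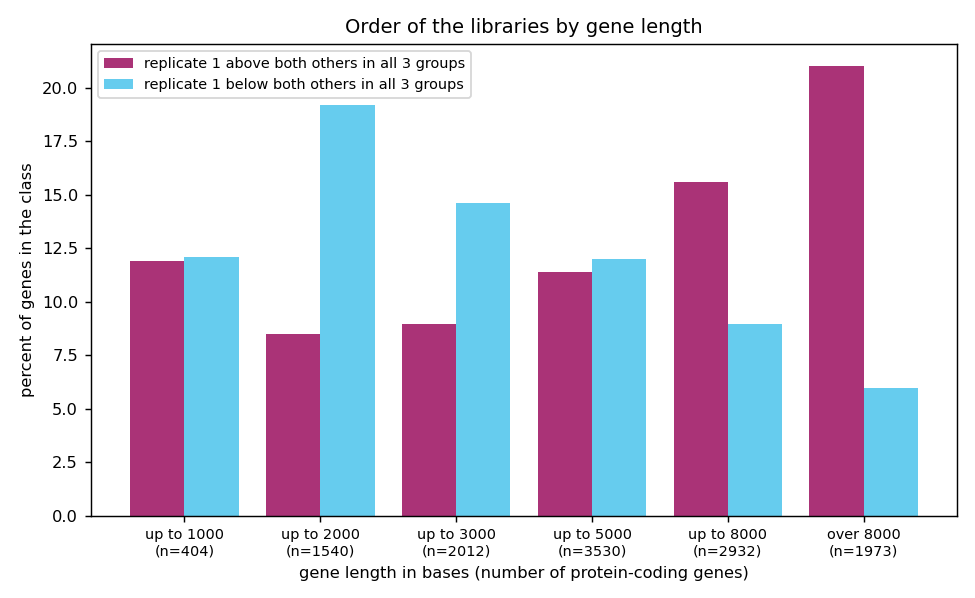
Percent of protein-coding genes whose replicate 1 value lies above (purple) or below (light blue) both other libraries in all 3 groups, in classes of gene length that each begin where the class before ends. The share above is 8.51% for 1000 to 2000 bases and 21% over 8000 bases, and the share below runs from 19.2% to 5.98%.

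The lists of exocrine pancreas, gland mucus and fat cell genes each had their highest mean in a single library. None of their genes lay above or below both other libraries of its group in all 3 groups. The 18 exocrine pancreas genes had medians of 0.73 in control, 7.91 in CeD and -0.48 in CeD+GR, and 17 had positive fitted differences. Their mean on the log2 scale was 2.29 in control 1 against 1.35 and 1.65 in control 2 and 3. It was -0.118 in CeD+GR 1 against -0.087 and 1.07 in CeD+GR 2 and 3. Ctrb1, a pancreatic protease precursor, was at 1472 FPKM in CeD 1, at 22.5 FPKM in control 1 and at 0.221 FPKM in CeD+GR 1. Brunner gland and gastric mucous genes were high in CeD+GR 3, where Muc6 stood at 3268 FPKM and was at most 0.0839 FPKM in the others. Apart from CeD+GR 3, the list summed to 6.98, 52.2 and 4.42 FPKM in replicate 1 and to 0.139 to 1.06 FPKM in the others. Fat cell genes were high in CeD+GR 2, with Adipoq at 26.6 FPKM and at most 1.51 FPKM elsewhere. Alpha-defensins summed to 39.7 FPKM in CeD+GR 3, the lowest sum of the 9 libraries, while stem cell genes were high there.

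The 1 test that the choice of the split did not use asks whether the replicate 1 difference itself differs between the groups, by an interaction contrast in limma over all 14683 genes. In these contrasts each group enters with 1 replicate 1 library, so a call can be that library alone, and the standard error comes from the spread between replicates 2 and 3. Between CeD and control 0 genes passed (0%), with a smallest Benjamini-Hochberg adjusted p of 0.111 and 112 genes at an unadjusted p under 0.05. Between CeD+GR and control 0 passed (0%), with a smallest adjusted p of 0.972 and 435 genes at an unadjusted p under 0.05. Between CeD+GR and CeD 2 genes passed (0.0136%), both lower, and 367 were at an unadjusted p under 0.05. They were the pancreatic elastase Cela2a, with a contrast of -9.25 (SE 0.51, limma adjusted p = 0.043), and the trypsinogen-like 2210010C04Rik, with -8.88 (SE 0.49, limma adjusted p = 0.043). Cela2a stood at 169 FPKM in CeD 1 and at 0 to 2.14 FPKM in the other 8 libraries, and 2210010C04Rik at 235 and at 0 to 1.64 FPKM. With limma-voom on recovered reads 0 genes passed in this contrast. No Paneth cell, immunoglobulin or smooth muscle gene passed in any of the 3 contrasts, which does not show that their differences were equal.

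Across genes, the replicate 1 differences of separate groups, which share no library, were correlated at 0.712 between control and CeD, 0.414 between control and CeD+GR and 0.375 between CeD and CeD+GR (Pearson, 14683 genes, which are not independent replicates). On the first principal component of values centred within groups, which held 47.7% of the variance, replicate 1 libraries scored 0.390, 0.416 and 0.210. CeD+GR 3 scored 0.362 and CeD+GR 2 scored -0.572 on it. On the second component, with 26.7% of the variance, CeD+GR 1 scored 0.568 and CeD+GR 3 -0.729. Control 1 and CeD 1 were thus alike on both components, while CeD+GR 1 shared the first with CeD+GR 3 and stood opposite to it on the second.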

How the data were processed

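RNA from mouse duodenum was sequenced after removal of ribosomal RNA, with directional libraries, per the labels' protocols. The authors deposited FPKM per gene in 1 table with gene lengths, and these values are used as deposited. Per the submitters' processing notes, the build was mm10 and the tools included featureCounts 1.5.0-p3 and HISAT2 2.0.5, besides DESeq2 1.20.0 and fastp, with no role or order stated. Whether counting used strand is not given in the sources used here, and a gene and its antisense partner cannot be told apart. Multiplied by gene length, 100% of the deposited FPKM above 0 were whole reads within 0.1 reads, and median-of-ratios factors of the FPKM were 1.008 in every library, so the values were already scaled between libraries.

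Values were taken as log2(FPKM + 0.5) for genes averaging 0.5 FPKM or more and fitted with limma 3.58.1 in R 4.3.3 (group and replicate 1 as terms, mean-variance trend, Benjamini-Hochberg at 0.05). Interaction contrasts used a separate mean for the replicate 1 library of each group. The steps were tested on simulated data. Named genes are up to 15 protein-coding genes per direction by size, up to 4 genes per list, up to 3 per interaction and a short set of markers; any other gene is marked in the text as picked with its values known. The split, the 43 lists and the rule were chosen with earlier results of these data known. Alternatives were 22 settings, among them pseudocounts of 0.1 and 1, no filter or at least 2 FPKM, other scalings, array weights, limma-voom, a replicate block and single libraries left out. A correction for GC content and length (99.91% of tested genes have a GC value), alone and with the replicate block, was added after seeing the data. Promoters came from the RefSeq table of GRCm38.p6, whose coordinates are those of mm10. Replicate numbers 1 to 3 occur in all 3 groups, and the labels do not say that they mark shared animals, batches or days, nor that libraries are separate animals, and a p-value then reflects how far these libraries vary, possibly for technical reasons. Values of a few single genes are not reported here.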

Additional observations from a re-analysis of the deposited data

Results flagged for a closer look

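In the limma interaction test of CeD+GR against CeD, 2 genes passed, both through the single library CeD 1. The contrast was -9.25 for Cela2a (a value of -9.253, limma adjusted p = 0.043) and -8.88 for 2210010C04Rik (-8.876, limma adjusted p = 0.043). Both are genes of the exocrine pancreas, at 169 and 235 FPKM in CeD 1. Each contrast rests on 1 replicate 1 library per group, with its standard error taken from replicates 2 and 3, so a difference between the treatments cannot be told apart from that of 1 library. Pnliprp1, a pancreatic lipase relative, missed the threshold at -7.53 (limma adjusted p = 0.0506). Sample outliers were not sought, since each group holds 3 libraries.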

How the results depend on the processing

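The counts of calls depended strongly on the setting. Against 304 genes higher and 142 lower, array weights gave 3300 and 3165, no filter 136 and 30, no group term 590 and 301, and protein-coding genes only 161 and 69. A pseudocount of 0.1 gave 180 higher. With CeD 1 and CeD+GR 3 left out together the counts were 947 and 787, and 4723 and 4058 genes lay above or below both others. With the replicate block, which leaves each difference the same, 178 genes were called higher and 50 lower, with GC and length correction 84 lower, and with both 184 and 37. Leaving out control 1, 2 or 3 gave 35, 69 or 102 higher and 1, 6 or 5 lower, leaving out CeD 1, 2 or 3 gave 10, 139 or 71 and 0, 47 or 5, and leaving out CeD+GR 1, 2 or 3 gave 33, 249 or 2373 and 2, 106 or 1972. The within-group order then gave 2053 to 4477 genes above and 1772 to 4398 below, with fewer libraries to compare.

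Interaction calls between CeD+GR and CeD were 0 at a pseudocount of 0.1, at a filter of 2 FPKM and under limma-voom, 8 with quantile normalization and with protein-coding genes only, 11 with array weights, 12 with a pseudocount of 1 and 1271 with no filter. Those between CeD and control were 1, 6, 15 and 1447 with protein-coding genes only, a pseudocount of 1, array weights and no filter, and those between CeD+GR and control 1041 with no filter. With single libraries left out they ranged from 0 to 581, 0 to 5 and 0 to 500, each highest without CeD+GR 2. The cause was not tested.

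List medians moved less. The defensin median was 4.86 at a pseudocount of 0.1 and 4.83 under limma-voom, and that of variable segments 3.85 and 3.71. The B cell median was 0.023 with no filter, where more genes enter, the macrophage median 0.89 with at least 2 FPKM, and the smooth muscle median -0.86 without CeD 1 and CeD+GR 3. With 1 library left out the medians ran from 1.13 to 1.95 for other Paneth cell products, 0.27 to 0.96 for fibroblast, 0.60 to 1.201 for blood endothelium and -1.62 to -1.06 for smooth muscle. The stem cell median was 0.21 without CeD 1 and 0.94 without CeD+GR 1. Over the 14 main lists, the sign changed in 9 of 209 medians under other settings and in 7 of 126 with a library left out. Depth was alike in all libraries, and genes near 0.5 FPKM rest on few reads.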

Other observations

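Several lists not described above varied between libraries. Of 14 circadian clock genes 1 lay above both other libraries of its group in all 3 groups, Arntl, an activator of the clock, at 3.61, 2.92 and 7.36 FPKM in the replicate 1 libraries (control, CeD and CeD+GR) and at 0.863 to 3.37 FPKM in the others. Dbp, a clock output gene, stood at 2.29, 4.48 and 0.992 FPKM in replicate 1. It was at 2.02 FPKM in control 3 and 0.879 FPKM in CeD+GR 3, and at 10.8 to 35.3 FPKM in the other 4 libraries. Low Dbp was thus not limited to replicate 1.

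Among 11 heat shock genes, the mitochondrial chaperone gene Hspd1 stood at 87.1, 108 and 88.6 FPKM in replicate 1 and at 23.1 to 74.8 FPKM in the others. The inducible chaperone gene Hspa1b stood at 3.31, 3.68 and 1.43 FPKM in replicate 1 and at 5.00 to 17.3 FPKM in 5 of the others, but at 2.66 FPKM in CeD+GR 3. Of 10 genes shared by all leukocytes 3 lay above in all 3 groups (Arhgdib, Cd53 and Was), with a median difference of 0.34. Ptprc, which encodes CD45, stood at 4.10, 3.17 and 3.63 FPKM against 1.28 to 4.03 FPKM. On the position lists 1 of 4 distal genes (Afp) and 1 of 10 proximal genes (Hnf4a) lay above in all 3 groups. Over all tested genes this share was 13.5%. Afp, a gene with higher levels in distal bowel, stood at 4.65 FPKM in CeD 1 and at 4.49 FPKM in CeD 2. Hnf4a, a transcription factor of the gut epithelium, stood at 135, 136 and 137 FPKM in replicate 1 against 44.9 to 110.3 FPKM. Median differences in control, CeD and CeD+GR were -0.06, -0.19 and 1.32 for distal genes and 0.16, 0.45 and -0.81 for proximal genes.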
